A study of Mus musculus with 6 samples.

Results

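The 10 genes described here are Apoe, Trem2 and 8 further genes of the disease-associated microglial programme (Tyrobp, Lpl, Clec7a, Itgax, Cd52, Spp1, Lgals3bp and Cst7). They were taken by name from the 34203 genes of the count matrix, and all 10 were found. Their levels were measured by plate-based single-cell RNA sequencing (mCEL-Seq2) of microglia and neural stem/precursor cells (NSPCs) from the subventricular zone (SVZ), the stem cell niche along the lateral ventricles. All mice were adult Nestin-CreERT2:R26-yfp animals given tamoxifen, in which a Cre recombinase under the Nestin promoter switches on a YFP reporter, so the reporter marks cells of the Nestin lineage and not one defined progenitor stage. Cells came from uninjured mice without photothrombosis, from mice 1 day after photothrombotic cortical ischemia (PT D1, Rose Bengal and light) and from mice 7 days after it (PT D7), with 2 libraries for each condition. The SVZ tissue was pooled over mice whose number per library is not given in the sources used here, and microglia were sorted as CD11b+CD45low cells, a gate that leaves out CD45high cells and so most invading leukocytes. Each library held cells of 1 condition. The plate and the sort of each library are not given, so their part cannot be told apart from that of the condition.

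Disease-associated microglia are a state first defined around amyloid plaques and since met in many models of injury and demyelination. Entry into the state is usually described in steps, in which homeostatic genes such as P2ry12 and Tmem119 go down while Apoe and Tyrobp go up, and a later step that needs the receptor TREM2 brings up Lpl, Cst7, Clec7a, Itgax and Spp1. TREM2 binds lipids and lipoproteins, APOE among them, and signals through the adaptor TYROBP (DAP12), which carries the activating motif. Apoe is also a major product of astrocytes and of the astrocyte-like stem cells of the SVZ, so that it is a gene of both sorted populations here.

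The matrix held 658 cells with 1001 to 27321 unique molecular identifiers (UMIs, each standing for 1 captured transcript) per cell. Of these, 416 were microglia (54 to 84 per library), 222 were NSPCs (15 to 61 per library) and 20 were left as a mixed class. The summed microglia of a library held 294984 to 468186 UMIs and the summed NSPCs 82504 to 497292. Levels are given as CPM, the UMIs of a gene per 1000000 UMIs of the summed cells, and a gene at 10 CPM is seen with only a few molecules in a library. No cell name was shared between libraries. The subtype names below are those of the deposited cell table (Homeostatic, Activated, Unknown, Development-associated and Disease-associated MG, where MG stands for microglia, and Quiescent B Cell, Activated B Cell, C Cell and Neuroblast). Of 6 marker genes of microglia, all 6 were detected, summing to 5721 to 13972 CPM in the microglia and at 174 to 1212 in the NSPCs. In the microglia, NSPC markers differed by library number. They summed to 68.6 (uninjured), 38.9 (PT D1) and 71.2 CPM (PT D7) in library 1, and to 359, 134 and 300 in library 2. In the same order, library 1 held 16, 19 and 15 NSPCs and library 2 held 59, 52 and 61. The part of these markers in the results below was not tested. Choroid plexus markers were at 10525 and 4650 CPM in the uninjured microglia and at 196 to 603 after PT, and their part in the results below was not tested. PT D1 library 2 stood apart, holding 35 of the 41 Development-associated MG among its 76 microglia and epithelial markers at 1427 CPM, against 84.8 to 254 in the microglia of the other libraries. Of the 5 epithelial markers, the paper names Elf3, Evpl, Lad1 and Mal2 for a microglial cluster that appeared 1 day after PT, as genes of adhesion and migration. That cluster was drawn from these same cells, so the marker sum is not a separate observation. The part of these cells and markers was not tested either. The counts of members called without the Development-associated cells are given with those counts.

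For 7 members a window of sequence was at hand in RefSeq (GRCm38.p6), from 250 bases before to 50 bases after the start that its table gives. The windows of 4 members are shown because these genes behaved differently below. Apoe was high in both sorted populations and Trem2 was held by most microglia. Clec7a and Spp1 were found in few cells, with most of their UMIs, though not all of those cells, in 1 subtype. Each window matched GRCm39 at 1 place: chr7:19433064-19433363 (minus strand) for Apoe, chr17:48653179-48653478 (plus strand) for Trem2, chr6:129449693-129449992 (minus strand) for Clec7a and chr5:104582727-104583026 (plus strand) for Spp1. The windows of Apoe and Spp1 lie wholly inside the span of the gene in GRCm39, with their starts 773 and 812 bases from that of the Ensembl canonical transcript, so they are not the sequence before the gene. Capitals mark the letters GAGGAA or their reverse complement TTCCTC, the core bound by ETS factors such as the myeloid factor PU.1.
Apoe: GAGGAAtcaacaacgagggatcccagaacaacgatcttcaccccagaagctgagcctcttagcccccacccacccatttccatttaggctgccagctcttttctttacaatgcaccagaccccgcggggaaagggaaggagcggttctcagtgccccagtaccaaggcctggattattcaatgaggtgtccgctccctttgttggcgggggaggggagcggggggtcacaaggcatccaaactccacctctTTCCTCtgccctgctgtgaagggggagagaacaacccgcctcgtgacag
Trem2: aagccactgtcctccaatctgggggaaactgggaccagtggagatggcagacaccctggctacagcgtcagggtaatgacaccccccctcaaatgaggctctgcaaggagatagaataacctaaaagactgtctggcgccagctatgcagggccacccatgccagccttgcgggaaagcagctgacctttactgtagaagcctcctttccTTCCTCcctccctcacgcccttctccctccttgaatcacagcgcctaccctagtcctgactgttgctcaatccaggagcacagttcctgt
Clec7a: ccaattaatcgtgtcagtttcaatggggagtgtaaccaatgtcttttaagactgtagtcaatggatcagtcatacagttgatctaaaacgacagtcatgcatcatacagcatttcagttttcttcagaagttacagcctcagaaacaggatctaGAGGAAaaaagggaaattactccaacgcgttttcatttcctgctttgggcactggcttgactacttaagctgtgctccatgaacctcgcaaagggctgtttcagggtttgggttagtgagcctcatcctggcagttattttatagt
Spp1: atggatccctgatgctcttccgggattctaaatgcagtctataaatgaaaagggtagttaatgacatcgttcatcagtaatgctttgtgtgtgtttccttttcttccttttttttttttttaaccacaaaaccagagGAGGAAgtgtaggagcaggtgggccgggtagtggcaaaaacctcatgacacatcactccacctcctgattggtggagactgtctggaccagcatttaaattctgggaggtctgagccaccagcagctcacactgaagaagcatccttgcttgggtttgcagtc
This hexamer stood in 5 of the 7 windows (Apoe, Trem2, Clec7a, Spp1 and Lgals3bp), and in 28.3% of 27025 promoter windows of the same length over all genes, searched on both strands. The AP-1 letters TGANTCA stood in 3 of 7 (Trem2, Itgax and Cst7) against 7.93% of all windows, and overlap no GAGGAA in these windows. The E-box CACGTG and the GC box CCGCCC stood in none of the 7, against 7.24% and 35.9% of all windows, and the TATA box TATAAA in 2 (Clec7a and Spp1) against 14.2%. A match of letters is a description of the window and not a binding site.

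Apoe encodes the lipid carrier of brain lipoproteins and lies on chromosome 7 (19430034 to 19434947, minus strand, GRCm39, as for all gene positions below). In the summed microglia it was at 1729 and 2038 CPM in the uninjured libraries, at 2791 and 2586 at PT D1 and at 4573 and 5963 at PT D7. Both PT D7 libraries lay above all 4 other libraries. The fold change of PT D7 over uninjured was 1.69 on the log2 scale (SE 0.26, edgeR quasi-likelihood adjusted p = 0.022 over 4846 genes), and that of PT D7 over PT D1 was 1.06 (SE 0.25, adjusted p = 0.0418). Between PT D1 and uninjured the log2 fold change was 0.64 (SE 0.25, adjusted p = 0.166). With the library number as a block, the PT D1 difference passed the test (edgeR adjusted p = 0.026). That block was fitted because the deviations of same-numbered microglial libraries correlated weakly (r of 0.193 to 0.262 over genes), and the labels do not say what the number marks. It raised the calls over all genes in this comparison from 276 to 639. In PT D1 library 1, 346 of the 1004 Apoe UMIs were in 1 Disease-associated cell, and without it the library was at 1848 CPM, inside the uninjured range.

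These Apoe calls rest on few libraries. The PT D7 call against uninjured was lost without uninjured library 1 (edgeR adjusted p = 0.622), without uninjured library 2 (0.338), without PT D7 library 1 (0.0629) and without PT D7 library 2 (0.0716), while the log2 fold change stayed between 1.59 and 1.77. Against PT D1 it was lost without PT D1 library 2 (adjusted p = 0.0942), without PT D7 library 1 (0.0879), without PT D7 library 2 (0.142) and without uninjured library 1 (0.115) or 2 (0.114). It was also lost without the cells that held 3 or more border macrophage markers (0.063).

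Lpl encodes lipoprotein lipase, the enzyme that frees fatty acids from lipoproteins (chromosome 8, 69284603 to 69360100, plus strand). It was at 63.1 and 94.0 CPM in the uninjured microglia, at 55.6 and 49.1 at PT D1 and at 373 and 317 at PT D7. Only the PT D7 libraries were high, and they did not overlap with either other condition. The log2 fold change of PT D7 was 2.35 over uninjured (SE 0.29, edgeR adjusted p = 0.00869) and 2.82 over PT D1 (SE 0.30, adjusted p = 0.000948). The call against uninjured was lost without uninjured library 1 (adjusted p = 0.271), uninjured library 2 (0.0735) or PT D7 library 1 (0.0685). The call against PT D1 held without each library in turn, with adjusted p up to 0.0146. Both calls were lost with cells thinned to 1000 UMIs (edgeR adjusted p = 0.570 over uninjured and 0.167 over PT D1).

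Much of the Lpl signal sat in few cells. In PT D7 library 1, 67 of its 110 UMIs were in 1 Disease-associated cell, and without that cell the library was at 151 CPM. In PT D7 library 2, the highest cell held 33 of 94 UMIs, and the library was at 211 without it. Both values lay above those of the uninjured and PT D1 libraries.

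Trem2 (chromosome 17, 48653429 to 48661175, plus strand) encodes the lipid-sensing receptor and Tyrobp (chromosome 7, 30113170 to 30117010, plus strand) its signalling adaptor. Trem2 was at 478 and 472 CPM in the uninjured microglia, at 370 and 304 at PT D1 and at 515 and 530 at PT D7. The PT D1 libraries were the lowest, and the PT D7 libraries lay just above the uninjured ones. None of the 3 comparisons passed the test, with log2 fold changes of -0.37 for PT D1 over uninjured (SE 0.24, edgeR adjusted p = 0.399), 0.36 for PT D7 over uninjured (SE 0.24, adjusted p = 0.806) and 0.73 for PT D7 over PT D1 (SE 0.24, adjusted p = 0.127). With the library number as a block, PT D7 over PT D1 passed for Trem2 (adjusted p = 0.0369).

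Tyrobp was at 522 and 562 CPM in the uninjured microglia, at 517 and 377 at PT D1 and at 617 and 597 at PT D7. Both PT D1 libraries lay below the uninjured ones on this scale, the higher of them by a small margin. With the TMM scaling used in the fit, PT D1 library 1 was at 565, above the uninjured 538 and 546, and PT D1 library 2 at 410. On that scale the 2 conditions overlapped. Its log2 fold changes were -0.15 (SE 0.25), 0.39 (SE 0.25) and 0.54 (SE 0.25) in the same order, with edgeR adjusted p of 0.782, 0.806 and 0.285. A p that misses the threshold does not show that the receptor and its adaptor stayed level.

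**Figure D1:**
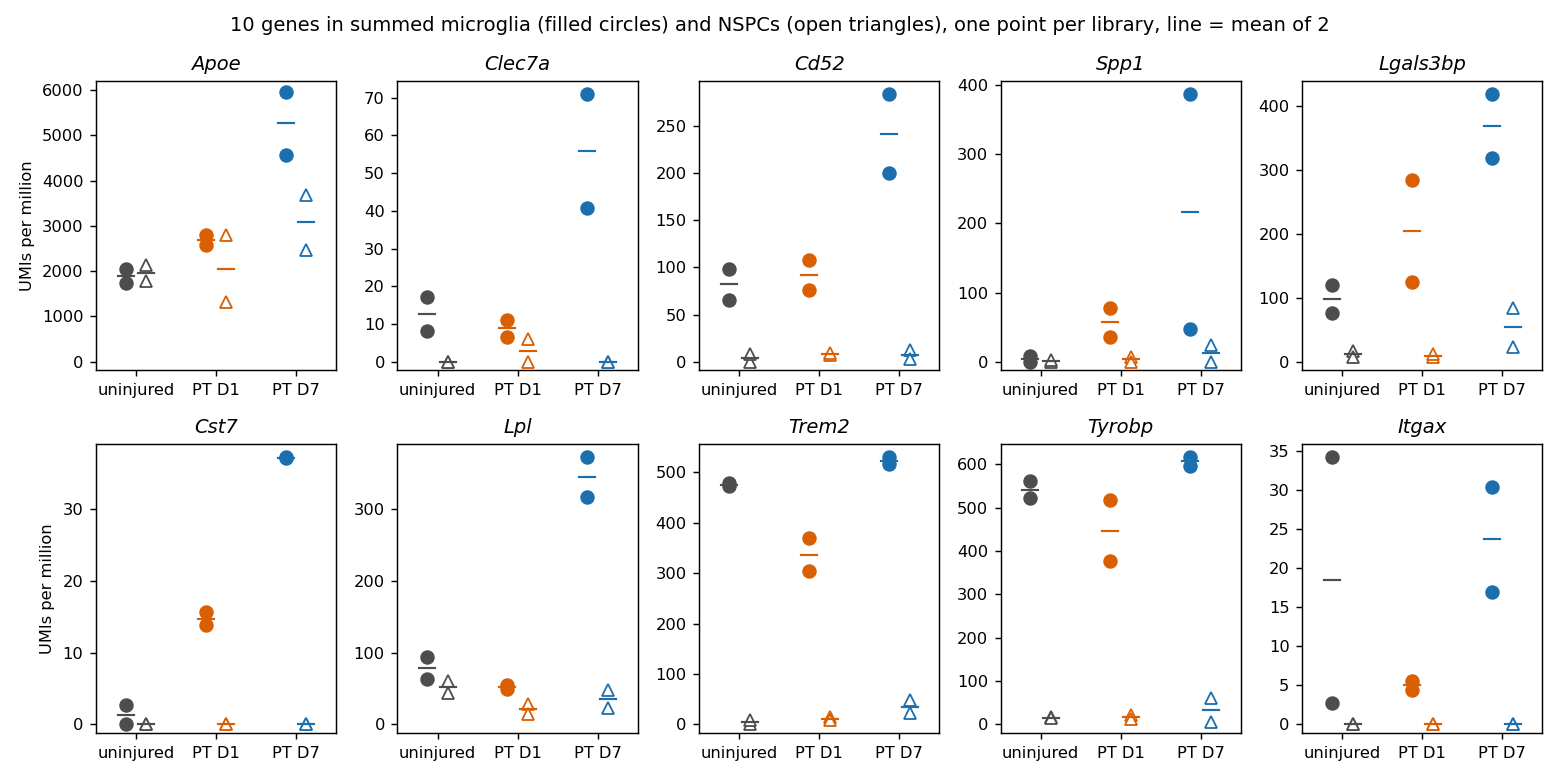
Level of each of the 10 genes (CPM, linear axis from 0, a separate scale for each gene) in the summed microglia (filled circles) and the summed NSPCs (open triangles) of each library, with a line at the mean of the 2 libraries of a condition. Apoe and Lpl at PT D7 lay above all other microglial libraries, Trem2 and Tyrobp passed the test in none of the 3 comparisons, and Spp1 at PT D7 was spread between 47.2 and 386.

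Clec7a (chromosome 6, 129438554 to 129449742, minus strand) encodes the pattern receptor dectin-1, and Itgax (chromosome 7, 127728668 to 127749829, plus strand) the integrin subunit CD11c. Clec7a was at 8.24 and 17.1 CPM in the uninjured microglia, at 11.1 and 6.70 at PT D1 and at 40.7 and 70.9 at PT D7, from 51 UMIs in all. The PT D7 libraries stood above the rest, and they alone reached the level that the filter on low counts asks for, so the gene entered the test through the group where it is high. It passed the test for PT D7 over PT D1 (log2 fold change 2.72, SE 0.59, edgeR adjusted p = 0.0273) and not for PT D7 over uninjured (2.27, SE 0.54, adjusted p = 0.253, or 0.0425 with the library block).

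The PT D1 to PT D7 call of Clec7a was lost without PT D1 library 2 (edgeR adjusted p = 0.0696), without PT D7 library 1 (0.105) and without PT D7 library 2 (0.303). Itgax was at 2.75 and 34.2 CPM in the uninjured libraries, so the spread within that condition was as large as any difference. It was at 5.56 and 4.47 at PT D1 and at 17.0 and 30.4 at PT D7, and passed the test in no comparison. In uninjured library 2, 15 of its 16 UMIs came from Disease-associated cells.

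Cd52 (chromosome 4, 133809759 to 133822401, minus strand) encodes a small glycoprotein anchored to the surface of immune cells. It was at 65.9 and 98.3 CPM in the uninjured microglia, at 108 and 75.9 at PT D1 and at 200.0 and 283 at PT D7. The PT D7 libraries were both above the others, which overlapped each other. It passed the test for PT D7 over PT D1 (log2 fold change 1.48, SE 0.30, edgeR adjusted p = 0.0217), a call lost without PT D7 library 1 (0.0741) or PT D7 library 2 (0.119) and without uninjured library 1 (0.0508). Over uninjured, its log2 fold change of 1.76 (SE 0.31) had an adjusted p of 0.0596, and of 0.00125 with the library block.

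Spp1 (chromosome 5, 104582165 to 104589235, plus strand) encodes osteopontin, and Lgals3bp (chromosome 11, 118280716 to 118292918, minus strand) a secreted glycoprotein that binds galectin-3. Spp1 was at 8.24 and 0 CPM in the uninjured microglia, at 77.8 and 35.7 at PT D1 and at 386 and 47.2 at PT D7. The high PT D7 library stood apart from its partner. In that library 63 of 114 UMIs were in 1 cell and a further 28 were in a second cell, which also held 3 or more border macrophage markers. Set against the 3 UMIs of both uninjured libraries, the ratio of PT D7 was 60.1 with a 95% counting interval of 20.1 to 295, and that of PT D1 was 15.1 (4.85 to 76.1). These intervals take each UMI as independent and leave out the spread between cells and between libraries, so they are too narrow for this gene. Neither passed the test (edgeR adjusted p = 0.089 and 0.109), and with the library block both did (1.24e-06 and 0.000404). The calls turned on which libraries were kept. Without PT D7 library 2, whose level was the lower, PT D7 was called over uninjured and over PT D1 (edgeR adjusted p = 0.00159 and 0.0136). Without PT D7 library 1 the log2 fold change was 3.69 over uninjured (adjusted p = 0.651) and -0.18 over PT D1 (adjusted p = 0.947). Without PT D1 library 1 or 2, PT D7 was called over uninjured (7.99e-05 and 2.91e-05), and without PT D1 library 1 also over PT D1 (0.0158). Without PT D7 library 1 or 2, PT D1 was called over uninjured (0.0297 and 0.0117).

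Lgals3bp was at 76.9 and 120 CPM in the uninjured microglia, at 284 and 125 at PT D1 and at 319 and 418 at PT D7. The order of the 3 conditions held for the libraries with no overlap, although PT D1 library 2 lay close to the uninjured range. The log2 fold change was 1.16 at PT D1 over uninjured (SE 0.38, edgeR adjusted p = 0.102) and 2.11 at PT D7 over uninjured (SE 0.38, adjusted p = 0.0675). With the library block these had adjusted p of 0.0248 and 0.000478, and PT D7 over PT D1 had 0.0376.

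Cst7 (chromosome 2, 150412284 to 150420864, plus strand) encodes cystatin F, an inhibitor of lysosomal cathepsins. It was at 2.75 and 0 CPM in the uninjured microglia, at 13.9 and 15.6 at PT D1 and at 37.3 and 37.1 at PT D7. These levels came from 1, 12 and 22 UMIs in the 3 conditions. The ratio of PT D7 to uninjured was 31.0 with a 95% counting interval of 5.01 to 1278, which leaves out the spread between cells and libraries. The test was not passed (edgeR adjusted p = 0.157, or 0.0208 with the library block).

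Across the 10 genes in the summed microglia, 0 passed the edgeR test for PT D1 over uninjured, where 5.7% of the 4846 genes tested did. An unadjusted edgeR p under 0.05 was met there by 4 of the 10 (Apoe, Lgals3bp, Spp1 and Cst7) and by 1066 of the 4846 genes. DESeq2 also called 0 of the 10. For PT D7 over uninjured, 2 passed (Apoe and Lpl, both higher) where 0.165% of all genes did, and 0.103% in the upward direction. For PT D7 over PT D1, 4 passed (Apoe, Lpl, Cd52 and Clec7a, all higher) where 3.8% of all genes did, and 1.69% upward. These 2 comparisons share the PT D7 libraries. With the library block, the counts were 3, 7 and 7 of 10, where 13.2%, 0.887% and 9.53% of all genes passed.

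The filter on low counts bears on these counts. Clec7a and Cst7 reached its level of 27.6 CPM only in the 2 PT D7 libraries, Spp1 only in the 4 PT libraries and Itgax in 1 uninjured and 1 PT D7 library, whereas the other 6 reached it in all 6 libraries. Of those 6 genes 0, 2 and 3 were called in the 3 comparisons in the order above, and 2, 4 and 5 with the library block. Without the Development-associated cells, 1 (Lgals3bp), 5 and 4 of the 10 were called, where 405, 19 and 281 of 4274 genes passed. Set against uninjured, the normalised levels of both PT D7 libraries lay above both uninjured libraries for 9 of 10 members, where 19.1% of all genes did so, and the exception was Itgax. Against PT D1 the count was 9 (22.7% of all genes, and Spp1 overlapped) and for PT D1 over uninjured 4 (27.2% of all genes). Clec7a, Cst7 and Spp1 entered these counts through the libraries where they are high. Of the 6 genes at the filter level in all 6 libraries, 6 lay higher at PT D7 over uninjured, 6 at PT D7 over PT D1 and 2 at PT D1 over uninjured. Leaving out 1 library changed how many members were called in each comparison, to fewer in some fits and to more in others. Leaving out a library also moved the calls over all genes, so the counts of members called are not a result about the members alone. Over 2 libraries a condition, an exact permutation test has 0.33 as its smallest p. Without scaling by TMM, the median log2 fold change of all genes at PT D7 over uninjured moved by -0.23, Apoe dropped out of the calls (log2 fold change 1.47, edgeR adjusted p = 0.101) and Lpl stayed in.

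**Figure D2:**
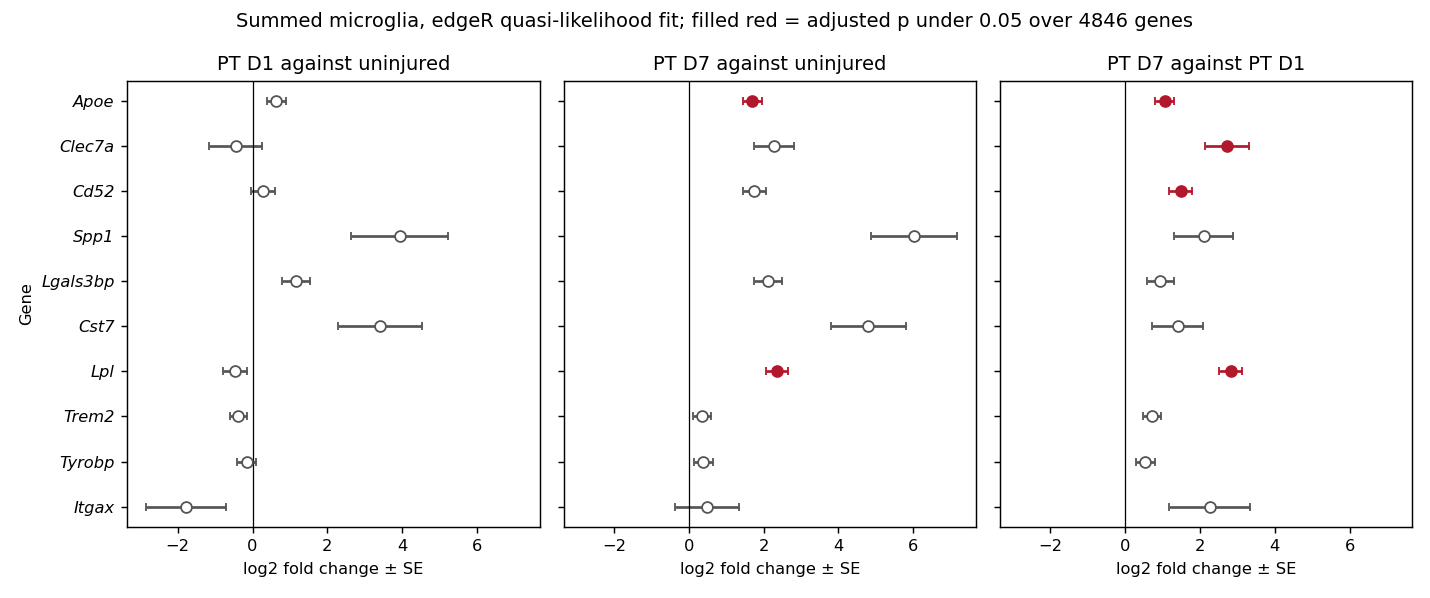
Log2 fold change with its SE for the 10 genes in the summed microglia in the 3 comparisons (edgeR quasi-likelihood fit, 6 libraries), filled red where the adjusted p over 4846 genes was under 0.05. Of PT D7 over uninjured 2 genes were red and of PT D7 over PT D1 4 genes, and the long bars of Spp1 and Cst7 belong to genes with 3 and 1 UMIs in the uninjured libraries.

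The other genes of the programme were counted in the same fits. Of 4 further genes of the early step, 2 rose at PT D1 over uninjured, the lysosomal protease gene Ctsb (log2 fold change 1.09, SE 0.26, edgeR adjusted p = 0.0333) and the ferritin gene Fth1 (1.26, SE 0.26, adjusted p = 0.0181), and 0 passed at PT D7 over uninjured by edgeR or DESeq2, where 3 had an unadjusted p under 0.05 and 2 passed with the library block (B2m and Ctsb). Of 11 tested genes of the late step, 2 rose at PT D1, Ctsl (1.34, SE 0.26) and Cd63 (1.94, SE 0.26), with adjusted p of 0.0153 and 0.00157. At PT D7 over uninjured 1 of 11 rose, the receptor tyrosine kinase gene Axl (2.96, SE 0.47, edgeR adjusted p = 0.029). Axl was at 11.3 and 16.6 TMM-scaled CPM in the uninjured microglia, at 21.3 and 55.8 at PT D1 and at 117 and 111 at PT D7. Both uninjured libraries lay under the 27.6 CPM of the filter, so Axl entered the test through libraries where it is high. At PT D7 over PT D1 1 of 11 rose, the chemokine gene Ccl6 (2.31, SE 0.47, edgeR adjusted p = 0.0212). The median log2 fold change of these 11 genes was 0.76, 1.01 and 0.62 in the 3 comparisons, beside 0.04, -0.01 and -0.01 over all genes. With the library block 3, 4 and 6 of the 11 passed, and DESeq2 called 2, 0 and 1. Over all 4846 genes, 5.7%, 0.165% and 3.8% passed in the main fit and 13.2%, 0.887% and 9.53% with the block. The microglial lists that follow are to be read beside the same shares.

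Homeostatic genes were lowest at PT D1. Of 12 such genes, 9 fell at PT D1 over uninjured and 9 rose at PT D7 over PT D1, 2 comparisons that share the PT D1 libraries. At PT D7 over uninjured 0 passed by edgeR or DESeq2, and 1 had an unadjusted p under 0.05. The purinergic receptor gene P2ry12 was at 1773 and 1827 TMM-scaled CPM in the uninjured microglia, at 441 and 238 at PT D1 and at 1362 and 1157 at PT D7. Its log2 fold change was -2.41 at PT D1 (SE 0.31, edgeR adjusted p = 0.0015), and Gpr34, a lysophosphatidylserine receptor gene, fell by 3.58 on the log2 scale (SE 0.29, adjusted p = 0.000234).

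Among 9 tested genes around TREM2-TYROBP signalling, 2 rose at PT D1 over uninjured and fell again at PT D7 over PT D1, the membrane protein genes Ms4a6d (1.94, SE 0.34, then -1.88, SE 0.36) and Ms4a6c (1.95, SE 0.38, then -1.81, SE 0.40). Their edgeR adjusted p were 0.00822 and 0.0149 for Ms4a6d and 0.0153 and 0.0307 for Ms4a6c. DESeq2 called Ms4a6d but not Ms4a6c in the later comparison. Of 7 tested genes of lipoprotein receptors and lipid efflux, 0 passed in any of the 3 comparisons by edgeR or DESeq2, with 1, 0 and 1 at an unadjusted p under 0.05. With the library block 1 of them passed, the lysosomal acid lipase gene Lipa at PT D7 over PT D1 (log2 fold change 1.35, edgeR adjusted p = 0.045). Of 10 tested binding partners and targets, 1 rose at PT D1, the galectin-3 gene Lgals3 (log2 fold change 2.10, SE 0.53, edgeR adjusted p = 0.0417), which DESeq2 did not call. With the library block 3 of the 10 passed there (Lgals3, Cd44 and Itgav). Of these, Itgav was lower at PT D1, at 36.5 and 34.0 TMM-scaled CPM against 90.6 and 76.8 uninjured. Lgals3 and Cd44 were higher in PT D1 library 2 (194 and 165) than in PT D1 library 1 (63.8 and 27.3). At PT D7 over uninjured 0 of the 10 passed by either tool, with 0 at an unadjusted p under 0.05.

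Single cells showed where these UMIs lay. The 37 Disease-associated MG held Apoe at 12363 CPM, against 1595 in 175 Homeostatic MG, 1939 in 104 Activated MG, 1266 in 59 Unknown MG and 2988 in 41 Development-associated MG. Since the subtypes were drawn from the expression of these same cells, these levels are a description with no test. Of the 5 microglial subtypes, the Disease-associated one also had the highest level of each of the other 9 members.

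In Disease-associated MG, Lpl was at 647 CPM, Spp1 at 502, Cd52 at 498, Clec7a at 141, Itgax at 96.7 and Cst7 at 78.1. The next highest subtype was Unknown MG for Lpl (130) and for Clec7a (11.8), Activated MG for Cd52 (98.3) and Cst7 (16.4), and Development-associated MG for Spp1 (46.6) and Itgax (8.48). For Trem2 and Tyrobp the subtypes were closer, at 640 and 967 CPM in Disease-associated MG, 509 and 552 in Homeostatic MG, 357 and 497 in Activated MG, 343 and 320 in Unknown MG and 263 and 267 in Development-associated MG.

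**Figure D3:**
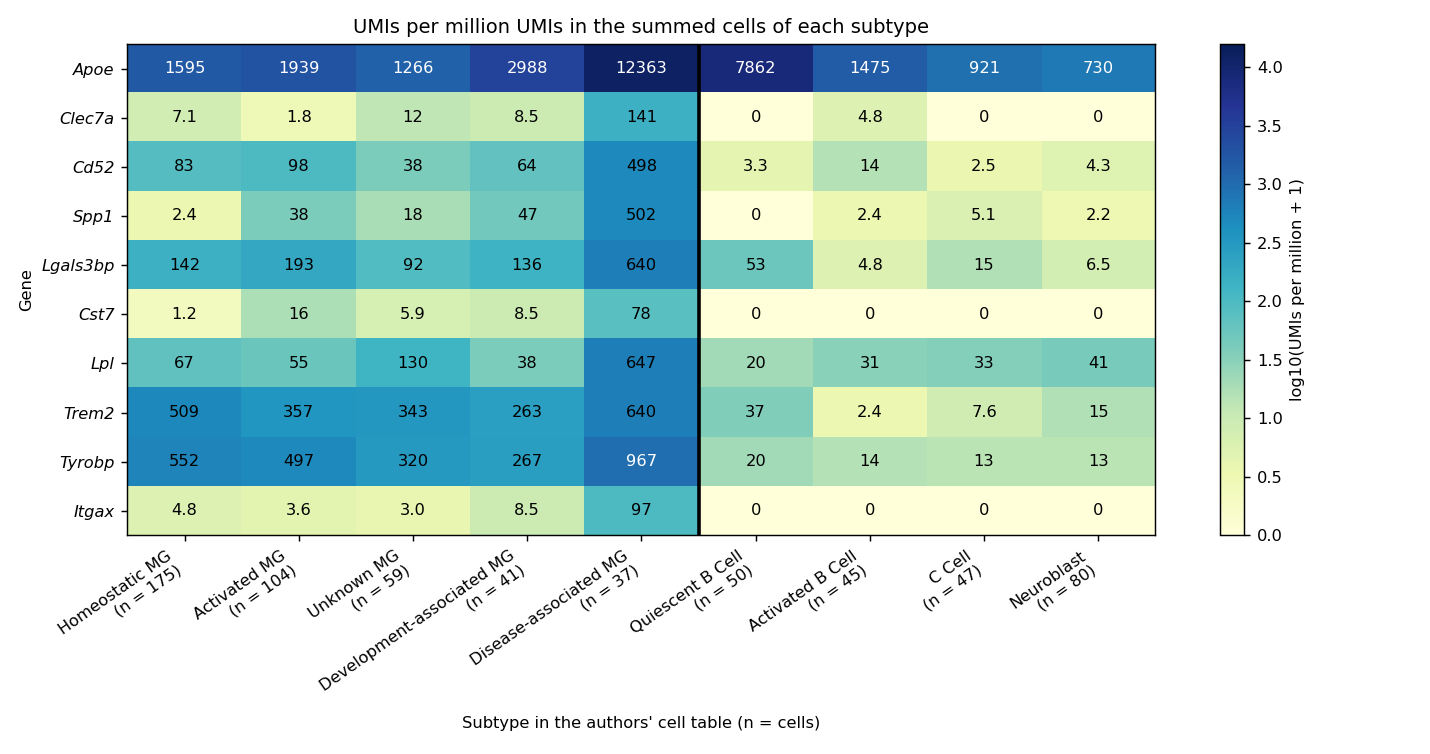
Level of the 10 genes (CPM, printed in each cell, colour on a log10 scale) in the summed cells of the 5 microglial subtypes (left of the line) and the 4 NSPC subtypes (right). Disease-associated MG were highest in all 10 rows, Apoe was at 7862 in Quiescent B Cells, and Cst7 and Itgax were at 0 in all NSPC subtypes.

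The subtypes were not spread evenly over the conditions. Disease-associated MG made up 1 of 71 and 5 of 84 microglia in the uninjured libraries, 2 of 71 and 0 of 76 at PT D1, and 16 of 54 and 13 of 60 at PT D7. Their share at PT D7 was 29.6% (95% exact interval 18.0 to 43.6) and 21.7% (12.1 to 34.2), and the 0 at PT D1 allows a share of up to 3.95%. Activated MG were found only at PT D1, and Homeostatic MG in 1 PT D1 cell only, so that for these subtypes state and time cannot be told apart. In the summed microglia, more cells of a subtype and more RNA per cell cannot be told apart either.

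At PT D7 the Disease-associated MG held 1103 of 1349 Apoe UMIs in library 1 and 1290 of 1767 in library 2. In the other microglia, Apoe was then at 1316 and 2353 CPM, and in the uninjured libraries without such cells at 1243 and 1492. The libraries of the 2 conditions overlapped in this measure, and at PT D1 the values were 1683 and 2586. For Lpl the same left-over levels were 118 and 148 at PT D7, 64.2 and 59.9 in the uninjured libraries and 48.7 and 49.1 at PT D1, with no overlap of PT D7 and the rest. The PT D7 values came from 22 and 30 UMIs, of which 16 and 23 were in Unknown MG and 6 and 7 in Homeostatic MG.

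Of the receptor and its adaptor, a smaller part came from these cells. At PT D7 they held 67 of 152 and 70 of 157 Trem2 UMIs, and 91 of 182 and 97 of 177 Tyrobp UMIs. The left-over microglia of PT D7 were at 455 and 429 for Trem2, below the 480 and 465 of the uninjured libraries. For Clec7a, 11 of 12 and 17 of 21 UMIs at PT D7 were in Disease-associated cells, and for Cst7 11 of 11 and 8 of 11.

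Within Homeostatic MG, the 2 uninjured and 2 PT D7 libraries with at least 10 cells could be set side by side. Lgals3bp was at 85.9 and 91.8 CPM in the uninjured ones and at 272 and 358 at PT D7, without overlap. Apoe was at 1306 and 1358 in the uninjured ones and at 1281 and 3134 at PT D7. The PT D7 Homeostatic MG held no cell with 3 or more border macrophage markers (described below). Without the 3 such uninjured cells the uninjured libraries were at 1119 and 1135, under both PT D7 values. That took cells from the uninjured side only. In PT D7 library 2, 138 of the 385 Apoe UMIs were in 1 cell, and without it the level was 2241. Without the highest cell of every library, Apoe was at 1119 and 1208 uninjured and at 1172 and 2241 at PT D7, which overlap. Trem2 was at 501 and 491 against 721 and 488, and Lpl at 64.4 and 67.5 against 96.1 and 57.0, so neither separated. Within Disease-associated MG, the 2 PT D7 libraries had 10206 and 13781 for Apoe and 1046 and 96.1 for Spp1, which shows how unlike 2 libraries of the same state were for Spp1.

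Per cell, Apoe took a median of 8.99 and 10.5 of 10000 UMIs in the uninjured libraries. It took 11.2 and 12.6 at PT D1, against 11.7 and 17.6 at PT D7. The medians differed far less than the summed levels. The highest cell reached 951 of 10000 UMIs, a Disease-associated cell of PT D1 library 1 that held 346 of that library's 1004 Apoe UMIs. Over the 37 Disease-associated cells the value ran from 9.69 to 951 with a median of 88.3, and over the 175 Homeostatic cells from 0 to 221 with a median of 10.7, so the 2 ranges overlapped.

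**Figure D4:**
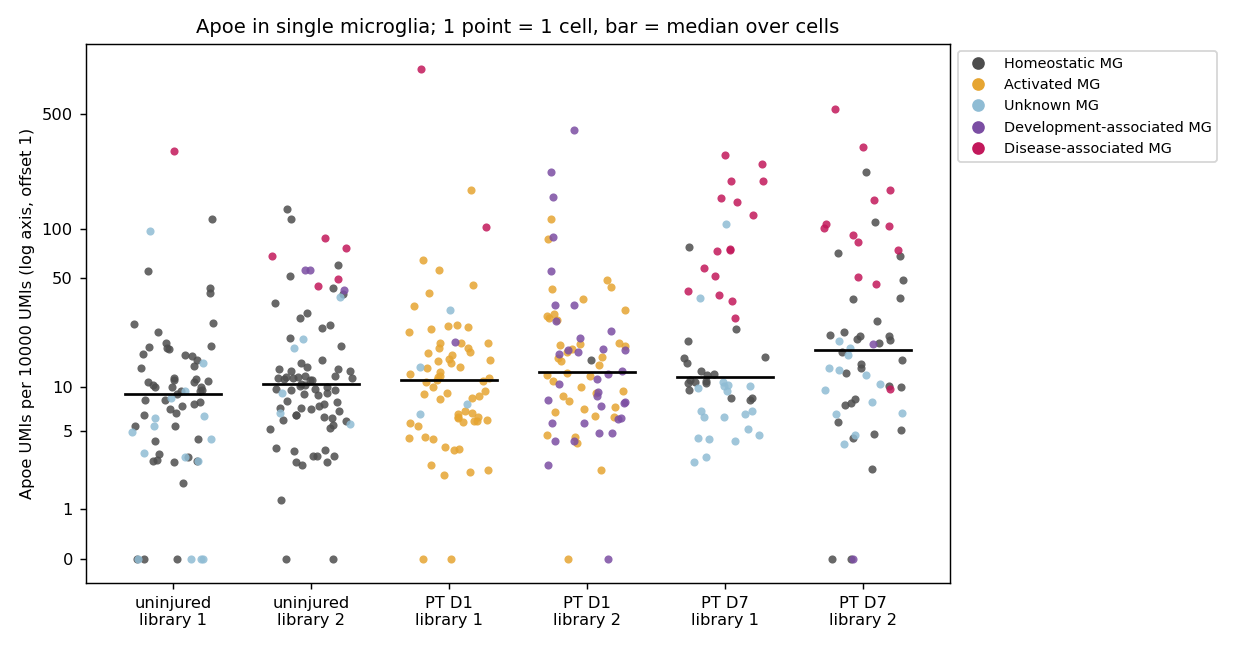
Apoe UMIs per 10000 UMIs in each of 416 microglia (log axis with an offset of 1), by library and coloured by subtype, with a bar at the median of the cells. The medians lay between 8.99 and 17.6, and the Disease-associated cells, 29 of the 37 at PT D7, had a median of 88.3 and a range that overlapped with that of the Homeostatic cells.

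6 microglia held UMIs of 3 or more of 7 border macrophage markers (Mrc1, Cd163, Lyve1, Pf4, F13a1, Ms4a7 and Clec12a), 2 in each uninjured library and 2 in PT D7 library 1. Summed, with 26628 UMIs in all, they were at 12656 CPM for Apoe, 1052 for Spp1, 263 for Trem2 and 37.6 for Tmem119. They held no UMI of Clec7a, Cst7 or Itgax. All 28 Spp1 UMIs were in 1 cell of PT D7 library 1, so the Spp1 level is that of 1 cell. The 7 markers summed to 132 and 115 CPM in the uninjured microglia. At PT D1 they summed to 22.2 and 20.1, and at PT D7 to 84.8 and 20.2. Without those 6 cells Apoe was at 1476 and 1874 in the uninjured libraries and at 4231 and 5963 at PT D7.

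To set cells of unlike depth side by side, every cell was thinned at random to 1000 UMIs, which left out none of the 416 microglia. A UMI of Apoe was then found in 56.8% of the uninjured microglia (95% exact interval 48.6 to 64.7), 75.5% at PT D1 (67.7 to 82.2) and 76.3% at PT D7 (67.4 to 83.8). The intervals cover counting error between cells and not the spread between libraries. For Trem2 the shares were 38.1%, 26.5% and 38.6%, and for Tyrobp 38.7%, 33.3% and 50.0%. For Lgals3bp they were 5.16%, 18.4% and 26.3%. In the NSPCs, which should lack them, Trem2 and Tyrobp were each in 1.35% of thinned cells.

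Without thinning, the shares in the 3 conditions were 94.2%, 97.3% and 97.4% for Apoe, 81.9%, 64.6% and 82.5% for Trem2, 83.2%, 75.5% and 88.6% for Tyrobp and 31.0%, 50.3% and 60.5% for Lgals3bp. In the unthinned NSPCs, Trem2 was in 8.11% and Tyrobp in 9.46% of cells. The median depth was 4155 to 5522 UMIs per cell in the microglia of a library and 5118 to 7002 in the NSPCs, so the NSPC shares are those of the deeper cells.

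Co-detection of the receptor and its adaptor was close to what the single shares give when multiplied. Trem2 and Tyrobp were found together in 58 of 416 thinned microglia (13.9%, 95% exact interval 10.8 to 17.6), where the product of the single shares is 13.6%. In Disease-associated MG the pair was in 11 of 37 cells (29.7%, 15.9 to 47.0), with a product of 30.4%, and in Homeostatic MG in 31 of 175 (17.7%, 12.4 to 24.2), with a product of 17.4%. Without thinning it was in 66.8% of all microglia, in 35 of 37 Disease-associated cells and in 1 of 222 NSPCs.

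Apoe and Trem2 together were in 99 of 416 thinned microglia (23.8%, product 23.5%). By condition the share was 20.0% in the uninjured microglia (14.0 to 27.2), 21.8% at PT D1 (15.4 to 29.3) and 31.6% at PT D7 (23.2 to 41.0), and these intervals overlap. In Disease-associated MG it was 43.2%, which is the share of Trem2 itself, since all 37 of these cells kept a UMI of Apoe. Apoe and Lgals3bp were together in 3.87% of the uninjured microglia (1.43 to 8.23), 15.0% at PT D1 (9.62 to 21.8) and 22.8% at PT D7 (15.5 to 31.6).

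Apoe with Lpl was found in 3.23%, 4.76% and 13.2% of the thinned microglia of the 3 conditions, and Apoe with Cd52 in 4.52%, 2.72% and 12.3%. In the 37 Disease-associated cells these 2 pairs were in 21.6% and 35.1%. Counting members per cell, 3 or more of the 10 were found in 14.2% of the thinned uninjured microglia (9.11 to 20.7), 20.4% of those of PT D1 and 40.4% of those of PT D7 (31.3 to 50.0). By library this share was 19.7% and 9.52%, 19.7% and 21.1%, and 42.6% and 38.3%, so the PT D7 libraries stood above the others. It was 75.7% in Disease-associated MG and 20.6% in Homeostatic MG. Without thinning, 5 or more members were found in 18.1%, 25.9% and 42.1% of the microglia of the 3 conditions.

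**Figure D5:**
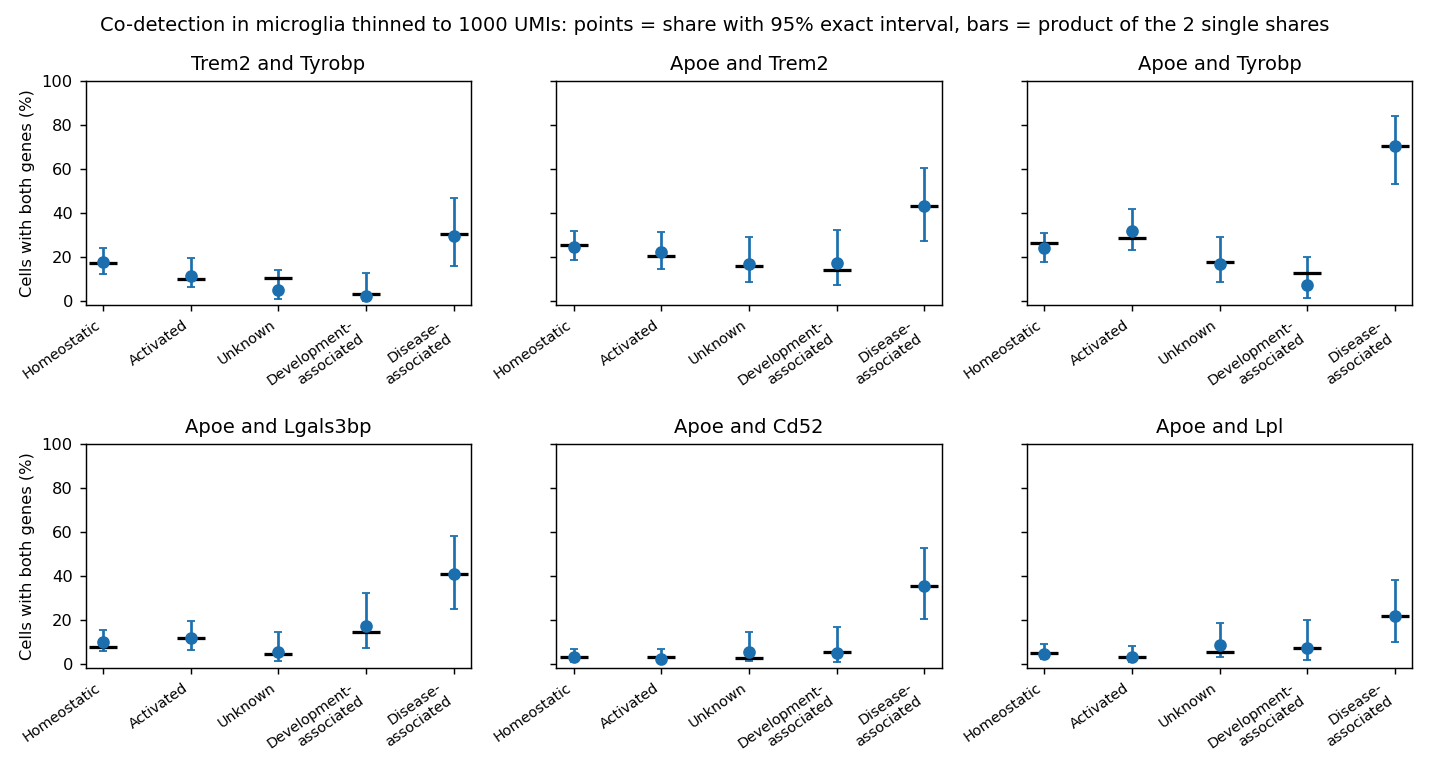
Share of thinned microglia (1000 UMIs per cell) with at least 1 UMI of both genes of a pair, by subtype, with the 95% exact binomial interval, and short bars at the product of the 2 single shares. Disease-associated MG lay highest for all 6 pairs, and the product lay inside the interval of the observed share in each subtype.

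In NSPCs, Apoe was the member with most UMIs. It was at 1782 and 2134 CPM in the uninjured NSPCs, at 1316 and 2798 at PT D1 and at 3685 and 2467 at PT D7, and the PT D1 libraries spanned the uninjured values. The log2 fold changes were 0.02 for PT D1 over uninjured (SE 0.26, edgeR adjusted p = 0.986), 0.56 for PT D7 over uninjured (SE 0.26, adjusted p = 0.995) and 0.54 for PT D7 over PT D1 (SE 0.26, adjusted p = 0.459). DESeq2 called neither Apoe nor Lpl in any of the 3, and an unadjusted edgeR p under 0.05 was met by Apoe in both PT D7 comparisons and by Lpl for PT D1 over uninjured. The log2 fold change of Lpl was -1.41 there (edgeR adjusted p = 0.299). Without PT D1 library 2, the PT D7 over PT D1 difference of Apoe was called (log2 fold change 1.22, edgeR adjusted p = 0.00042). Of all 4907 genes tested in NSPCs, 2.12%, 0.0815% and 0.632% passed in these comparisons. The highest library, PT D7 library 1, held only 15 NSPCs and also the most microglial marker UMIs, 1212 CPM against 174 to 396 in the others, whose part in its Apoe level was not tested.

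By NSPC subtype, Apoe was at 7862 CPM in 50 Quiescent B Cells, 1475 in 45 Activated B Cells, 921 in 47 C Cells and 730 in 80 Neuroblasts, falling along the lineage from stem cell to neuroblast. Where a library held at least 10 Quiescent B Cells, the level was 7553 in uninjured library 2, 7102 at PT D1 and 9607 at PT D7. In Neuroblasts of the same 3 libraries it was 602, 1239 and 852. The ranges of these subtypes did not overlap, and the levels are a description, since the subtypes were drawn from the same cells.

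Lpl was the only other member tested in NSPCs. It was at 60.2 and 44.2 CPM in the uninjured NSPCs, at 27.8 and 14.8 at PT D1 and at 48.5 and 22.8 at PT D7, from 51 UMIs in all, and passed in no comparison. The remaining 8 members were at 0 to 84.8 CPM in every NSPC library. Cst7 and Itgax had no UMI in 222 NSPCs, which allows a share of cells with a UMI of up to 1.35%. Trem2 had 22 UMIs and Tyrobp 23. Of the other lists, 1 gene passed in NSPCs, the hyaluronan and osteopontin receptor gene Cd44, among 5 tested binding partners. It rose at PT D1 over uninjured (log2 fold change 2.88, SE 0.66, edgeR adjusted p = 0.0183), and DESeq2 did not call it. Cd44 was at 9.58 and 12.1 TMM-scaled CPM in the uninjured NSPCs, at 89.5 and 87.4 at PT D1 and at 0 and 31.4 at PT D7. Only the PT D1 libraries lay above the 41.5 CPM that the filter on low counts asks for in NSPCs. The gene thus entered the test through the group where it is high.

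The change of Lpl differed between the 2 sorted populations in the main fit, a call that held in 4 of 12 alternative settings. In one fit of both, with the library as a block, the log2 fold change of PT D7 over uninjured was higher in microglia than in NSPCs by 2.95 (SE 0.64, edgeR adjusted p = 0.0244 over 7514 genes, of which 0.0399% passed). The call was lost without PT D7 library 2 (adjusted p = 0.587), uninjured library 1 (0.296) or uninjured library 2 (0.537). It was also lost in DESeq2, without TMM, without the filter and with cells of at most 10% mitochondrial UMIs. The NSPC side rested on 29 Lpl UMIs in the uninjured libraries and 13 at PT D7. With cells thinned to 1000 UMIs, no uninjured NSPC kept an Lpl UMI, so no direction could be read. For Apoe the difference was 1.09 (SE 0.41, adjusted p = 1). Apoe and Lpl were the members that passed the filter in both classes, and the difference was read for these alone.

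Over the 12 sums of a microglial subtype in a library with at least 10 cells, the genes whose log2 levels ran most like Apoe were Cd52 (Pearson r = 0.941), the MHC class I gene H2-D1 (0.937), Aph1a, which encodes a gamma-secretase subunit (0.907), Il2rg (0.903) and Ifi27l2a (0.896). Those most like Trem2 were Itm2b (0.939), Abhd12 (0.926), Hspa5 (0.913), Rgl2 (0.906) and Calr (0.905). Among the other members, Tyrobp had an r of 0.827 with Trem2, and Apoe one of 0.463. The points share libraries and subtypes, so these values describe likeness only.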

How the data were processed

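Microglia and NSPCs of 6 libraries were analysed. Per the labels and the authors' methods, mCEL-Seq2 reads (UMIs of 6 bases) were demultiplexed with bcl2fastq 2.17.1.14 and mapped to GRCm39, and the authors kept cells with at least 1000 UMIs and at most 25% mitochondrial UMIs and removed cells over 3 median absolute deviations in UMIs as putative doublets. The deposited matrix holds UMI counts, not normalized. Class and subtype came from the deposited cell table, of which 13 further columns were not used. For PT D7 cells the name's final digit gave the library.

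Counts were summed per library and class and tested with edgeR 4.0.16 (R 4.3.3; TMM, filterByExpr, quasi-likelihood F test, all 6 libraries in one fit), with Benjamini-Hochberg adjustment over all genes tested and a threshold of 0.05. Nothing in the sources says that libraries came from separate animals, so p-values measure the spread between these libraries, which may be technical. The paper names 3 plates and 192 cells per library, but not which plate held which library. Plate, sort and condition may coincide, and their parts cannot be told apart. A difference between classes was tested with the library as a block. The script was tested on simulated counts. Levels by subtype, shares and pairs were not tested. Shares carry 95% exact (Clopper-Pearson) intervals, and a count of 0 allows up to 3 counts; both cover counting error only. No further doublet call was made. In microglia, deviations of same-numbered libraries from their condition means correlated at 0.22, 0.193 and 0.262 for the 3 pairs of conditions, so the library number was also fitted as a block; the labels do not say what the number marks.

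The 10 members always, the genes of each list that passed (at most 3 in each direction) and the 5 genes most like Apoe and Trem2 were named; B2m, Cd44, Itgav and Lipa were named after their values were seen. Members and lists were chosen with earlier results of these data known. Alternatives were other normalizations, filters, cell sets, DESeq2 1.42.0, the block and each library left out.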

Additional observations from a re-analysis of the deposited data

Results flagged for a closer look

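The change of Lpl from uninjured to PT D7 differed between microglia and NSPCs, by 2.95 on the log2 scale in the fit of both classes. The test of that difference passed the threshold (edgeR adjusted p = 0.0244), and for Apoe, the other member tested, it did not. The Lpl call held in 4 of 12 alternative settings and was lost in DESeq2.

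The 20 cells of the mixed class, with the subtype Unknown/Ependymal in the deposited table, entered no comparison. Apoe was at 5413 CPM in the 8 mixed cells of PT D1, against 2500 in the 4 uninjured ones and 1441 in the 8 of PT D7. All 4 uninjured mixed cells came from uninjured library 2, so the uninjured values rest on 1 library. Trem2 was at 107 CPM (7 UMIs) and Tyrobp at 61.3 (4 UMIs) in the mixed cells of PT D7, both above the 54.4 that a count of 0 in the uninjured mixed cells allows. By library, Trem2 was at 168 (6 UMIs) and 34.0 (1 UMI) and Tyrobp at 112 (4 UMIs) and 0, so PT D7 library 2 lay under that limit for both genes.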

How the results depend on the processing

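The number of calls over all microglial genes moved with the processing. At PT D7 over uninjured it was 8 of 4846 in the main fit, 9 in DESeq2, 6 without TMM and 43 with the replicate block. It was 1 of 921 thinned, 7 of 3669 at 10% mitochondrial UMIs and 35 of 19178 without the filter. With only the 2 conditions in the fit it was 10 of 3923, and without Development-associated cells 19 of 4274. The number of members called in microglia moved as well. For PT D1 over uninjured it was 0, where 276 of 4846 genes passed. It was 1 with cells thinned to 1000 UMIs (47 of 921 genes) and 1 with at most 10% mitochondrial UMIs (345 of 3669). Without the filter it was 3 (541 of 19178), and with only the 2 conditions in the fit 1 (220 of 4912). With the replicate block it was 3 (639 of 4846), and without Development-associated cells 1 (405 of 4274). For PT D7 over uninjured it was 2, and in the same order 0, 5, 7, 4, 7 and 5, with 4 in DESeq2 and 1 without TMM. For PT D7 over PT D1 it was 4 (184 of 4846), 0 thinned (14 of 921) and 7 with the replicate block (462 of 4846). These counts of members also moved with 1 library left out. In NSPCs, PT D7 over PT D1 went from 0 to a range of 0 to 1 with 1 library left out. NSPC libraries of the same number correlated at 0.095, -0.0581 and -0.041, so they were not taken as paired, and the block called 0 members there. For the difference between classes at PT D7 the count was 1. It was 0 when thinned, at 10% mitochondrial UMIs, in DESeq2, without the filter and without TMM, and it moved with 1 library left out. With at least 10 counts asked for in every library, Lpl was not tested, so it could not be called there. The fitted value of Lpl in it was -2.74 when thinned, where no uninjured NSPC kept an Lpl UMI, so that it depends on the prior count and shows no turn of direction. Co-detection of Trem2 and Tyrobp rose with the number of UMIs kept per cell, from 13.9% at 1000 UMIs to 33.2% at 2000 and 66.8% unthinned. Cells with fewer than 2000 UMIs were left out at that depth. Why the counts of members moved with the settings was not tested.

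Over single members, 594 alternative values kept their side of the threshold with no called value changing sign, 52 passed it newly, 34 lost it and the thinned Lpl value had the other sign. Without TMM the median log2 fold change over all microglial genes moved by -0.13, -0.23 and -0.10 in the 3 comparisons, and the share of calls that were higher from 47.8% to 33.7%, 62.5% to 50.0% and 44.6% to 34.7%. The runs without border macrophage marker cells and without Development-associated cells were chosen after seeing the data. Few UMIs limit Clec7a, Cst7, Itgax and Spp1.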
